A study of Mus musculus with 31 samples.

Results

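Ribosome footprints of cortex were compared between mice lacking both Fmr1 and Rps6kb1 (DKO in the labels) and mice lacking Fmr1 alone (FXS in the labels, after fragile X syndrome). The members were the footprint libraries that the labels give these genotypes, 3 of DKO and 5 of FXS, or 8 of the 31 libraries of the study. Both groups lacked Fmr1, and the genotypes differ by the deletion of Rps6kb1. It bears on whether S6K1 loss restores ribosome occupancy that Fmr1 loss had changed. The other footprint libraries, 4 of wild-type mice (WT) and 3 of mice lacking Rps6kb1 alone (S6K1), entered the same model, and 16 mRNA libraries, 4 of each genotype, gave a further readout. All mice were 29 to 34 days old. Alleles, strain and sex were not given in the sources used here, nor whether libraries came from separate animals, so p-values measure the spread between libraries.

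Ribosome profiling sequences the mRNA fragments that translating ribosomes shield from nuclease, so a gene's footprint level follows both the abundance of its mRNA and how densely ribosomes load it. S6K1 is a kinase downstream of the growth regulator mTORC1. It phosphorylates ribosomal protein S6, initiation factor eIF4B and the elongation factor kinase eEF2K. FMRP, the product of Fmr1, is an RNA-binding protein that represses translation of many neuronal mRNAs, and its loss causes fragile X syndrome. The mTORC1 pathway and S6K1 have been studied as a route to lower translation in Fmr1-deficient brain.

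Levels are counts per M counts of the library (CPM), scaled between libraries, and are given in replicate order, with replicates numbered in accession order because the labels carry no number. The 8 libraries held 16.8 to 34.1 M counts. Batches were unbalanced: DKO replicate 1 stood in a batch with no FXS library, FXS replicates 1 and 2 stood in a batch with no DKO library, and both genotypes shared the batches labelled 3 and 4. Batch was therefore a term in the model, and fitted differences are not simple ratios of group means. Markers of cortical excitatory neurons were present, with all 17 listed genes tested and the lowest at a mean of 17.8 CPM. Markers of striatum summed to 432 to 1026 CPM over FXS libraries and 371 to 633 CPM over DKO libraries. Choroid plexus markers summed to 10.1 to 129 CPM in FXS and 9.41 to 30.7 CPM in DKO. The part of these differences in tissue content in the results below was not tested.

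Rps6kb1 and Utp18 were the 2 genes called at an adjusted p under 0.05 among 13953 tested, 0.0143%, and Tubd1, the neighbour of Rps6kb1, was among the 12 higher genes of smallest p. The windows before the starts of these 3 genes are printed because all 3 lie on chromosome 11. Rps6kb1 and Tubd1 are transcribed away from each other from starts 184 bases apart, so that their windows share 183 bases. Each window holds the 250 bases before the start that the promoter table of RefSeq (GRCm38.p6, the mm10 assembly) gives. For Rps6kb1 that start lies 78 bases inside the outer end of the gene span given below, so the window holds those 78 bases too. Capitals in the first and second mark CGCATG on either strand (CATGCG on the other), part of the element bound by the transcription factor NRF1. Capitals in the third mark CACGTG, the E-box. The windows are chr11:86544808-86545057 (minus strand), chr11:86544741-86544990 (plus strand) and chr11:93885767-93886016 (minus strand).
Rps6kb1: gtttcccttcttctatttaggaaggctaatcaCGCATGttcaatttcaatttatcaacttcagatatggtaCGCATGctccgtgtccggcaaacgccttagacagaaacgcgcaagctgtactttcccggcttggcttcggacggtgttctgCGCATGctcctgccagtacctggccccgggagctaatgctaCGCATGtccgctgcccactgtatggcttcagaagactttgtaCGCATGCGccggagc
Tubd1: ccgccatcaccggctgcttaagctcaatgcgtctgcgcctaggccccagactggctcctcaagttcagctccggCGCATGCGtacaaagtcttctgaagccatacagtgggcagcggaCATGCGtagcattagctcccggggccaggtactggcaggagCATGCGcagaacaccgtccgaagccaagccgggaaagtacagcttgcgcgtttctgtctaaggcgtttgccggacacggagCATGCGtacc
Utp18: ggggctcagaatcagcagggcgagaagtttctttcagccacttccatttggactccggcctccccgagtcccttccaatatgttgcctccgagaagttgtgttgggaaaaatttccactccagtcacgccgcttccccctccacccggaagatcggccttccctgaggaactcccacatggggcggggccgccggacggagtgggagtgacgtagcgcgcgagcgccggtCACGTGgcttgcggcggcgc
CGCATG matched 6 times before Rps6kb1 and 5 times before Tubd1, largely the same sites, since the windows overlap, and was present in 5.57% of 27025 mouse windows of this length. The longer form GCATGCGC, whose matches lie within those of CGCATG, occurred 2 times in each of these windows and in 2.32% of all windows. The window of Utp18 held neither, and held 1 match of CACGTG (6.05% of all windows), 1 of GGGCGG (32.9%), 1 of CCGGAAG (7.05%) and 1 of TGACGT (6.56%). None of these 4 was found before Rps6kb1 or Tubd1. A match describes letters only, and binding was not measured.

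Footprints of Rps6kb1 fell in DKO and those of Utp18, a component of the complex that processes the small-subunit ribosomal RNA, rose. Rps6kb1 (chromosome 11, 86498869 to 86544885) read 29.4, 31.4, 36.3, 34.1 and 31.4 CPM in FXS and 11.97, 11.7 and 11.3 CPM in DKO. The groups did not overlap, and the DKO libraries lay close together. The log2 fold change of DKO against FXS was -1.63 ± 0.128 (SE, edgeR quasi-likelihood test, adjusted p 2.68e-05), and within batches 3 and 4 the difference in mean log2 level was -1.63 and -1.53. In S6K1 against WT the log2 fold change was -1.63, and the test of the difference between both contrasts gave 0.01 (p 0.9749). Footprints were counted per gene, so these values do not show where on the coding sequence the remaining reads lay.

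Utp18 (chromosome 11, 93859243 to 93885766) read 37.3, 42.1, 45.5, 38.8 and 36.5 CPM in FXS and 71.5, 67.2 and 67.5 CPM in DKO. Every DKO library lay above every FXS library with a gap wider than the spread of either group. Its log2 fold change was 0.72 ± 0.0826 (SE, 95% interval 0.55 to 0.90, edgeR adjusted p 0.00200), and the differences within batches 3 and 4 were 0.56 and 0.84. WT libraries (35.4 to 43.3 CPM) overlapped FXS, and S6K1 libraries (56.7 to 62.3 CPM) lay above both. The log2 fold change in S6K1 against WT was 0.52, and the difference between both contrasts, 0.20, had an unadjusted p of 0.107. The call was lost without DKO replicate 3, at a log2 fold change of 0.61 and an adjusted p of 0.250, and with batches 3 and 4 alone, at 0.73 and 0.140.

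Fmr1 itself checked the genotypes. Its footprints read 8.202, 7.53, 8.68, 7.03 and 7.81 CPM in FXS and 12.8, 10.7 and 8.03 CPM in DKO, against 105 to 138 CPM in WT and 104 to 159 CPM in S6K1. Every FXS and DKO library lay far below every library that carries Fmr1. DKO and FXS differed by 0.19 on the log2 scale (95% interval -0.08 to 0.46, p 0.153).

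**Figure D1:**
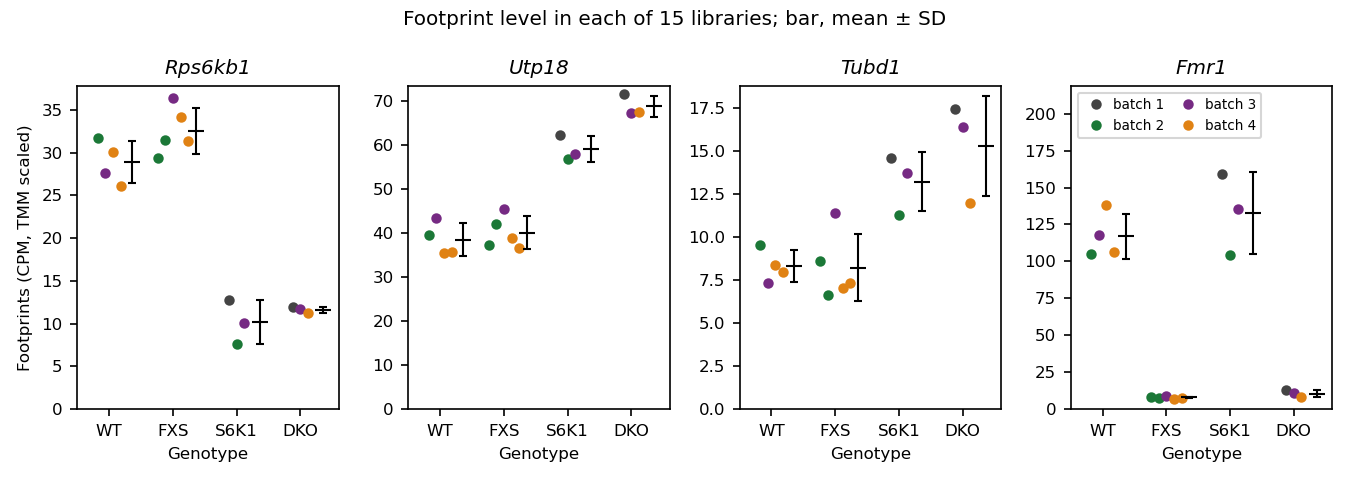
Footprint level in CPM (linear axis from 0) of Rps6kb1, Utp18, Tubd1 and Fmr1 in each of the 15 footprint libraries, by genotype, with points coloured by batch and bars for mean ± SD. Rps6kb1 is low in S6K1 and DKO, Utp18 is higher there than in WT and FXS, and Fmr1 is low in FXS and DKO. Tubd1, not called, has higher means in S6K1 and DKO, but S6K1 replicate 2 (11.31 CPM) lies below FXS replicate 3 (11.41 CPM).

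Transcript levels separated the pair of called genes. In mRNA the log2 fold change of Rps6kb1 was -0.47 ± 0.0768 (SE, edgeR adjusted p 0.0133), smaller than in footprints, and that of Utp18 was 0.04 ± 0.0860 (adjusted p 0.907). The mRNA call of Rps6kb1 was kept in 2 of the 8 fits that leave out 1 mRNA library, those without FXS replicate 3 and without DKO replicate 3, and was lost without the batch term. Translational efficiency, the footprint contrast minus the mRNA contrast in 1 model of all 31 libraries, was called for 2 of 13654 genes, 0.0146%. These were Rps6kb1 at -1.14 ± 0.138 (SE, edgeR adjusted p 9.01e-05) and Utp18 at 0.69 ± 0.120 (0.0322). The mRNA contrast called 4 of 14215 genes, 0.0281%, of which Rps6kb1 was 1. The other 3 were Slfn8 of the Schlafen family, at -2.996 in mRNA, Cuedc1 at 0.63, and Smg1, a kinase of nonsense-mediated decay, at -0.39. Their footprint log2 fold changes were -1.96 (p 0.00130), 0.12 (p 0.417) and 0.03 (p 0.803). Slfn8 and Cuedc1 lie on chromosome 11, at -3.50 and 1.60 Mb from Rps6kb1, among the neighbours read below. Slfn8 rested on 13 footprints in DKO and 75 in FXS and belongs to a family of similar genes between which reads may be divided, so its value is uncertain.

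Including Rps6kb1 and Utp18, 864 genes, 6.19% of those tested, had an unadjusted p under 0.05, with 385 higher in DKO (2.76%) and 479 lower (3.43%). In 228 genes (1.63%) every DKO library lay above every FXS library, and in 293 (2.1%) every one lay below. The 12 higher and 12 lower genes of smallest p, among those with a mean of at least 5 CPM, had adjusted p from 0.574 to 0.762 and were not called. The groups did not overlap for 5 of the 12 higher and 7 of the 12 lower genes. On chromosome 11 lay 2 of the higher and 4 of the lower genes, against 1126 of the 13953 genes tested. None of the 24 had an unadjusted p under 0.05 in mRNA, against 1394 of the 14215 genes tested there. Because the 24 were picked by footprint p, this does not show footprint changes apart from mRNA.

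**Figure D2:**
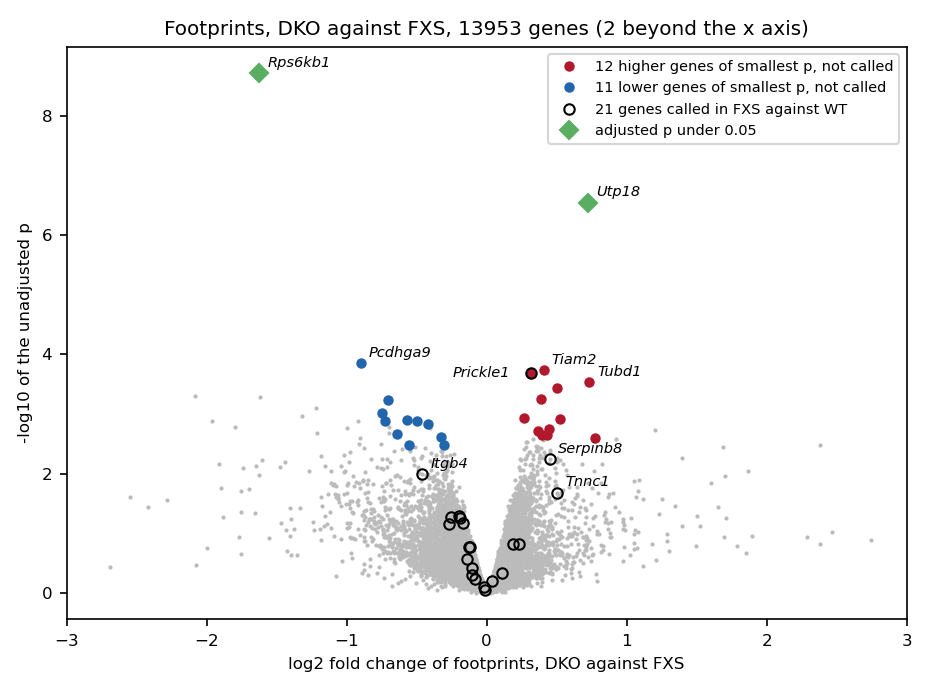
Each point is 1 of 13953 genes, with the log2 fold change of footprints in DKO against FXS on the x axis and -log10 of the unadjusted p on the y axis; 2 genes lie beyond the x axis. Rps6kb1 and Utp18 (diamonds) stand apart, and 21 genes called in FXS against WT (rings) spread around 0.

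Among the higher genes, Tubd1, which encodes delta-tubulin of the centriole (chromosome 11, 86544991 to 86571608), read 8.63, 6.61, 11.4, 7.03 and 7.32 CPM in FXS and 17.5, 16.4 and 11.99 CPM in DKO. The groups did not overlap, though FXS replicate 3 came close to DKO replicate 3. Its log2 fold change was 0.73 ± 0.157 (SE, edgeR adjusted p 0.680), against 0.16 in mRNA, and in S6K1 against WT it was 0.46 (p 0.0164). Tiam2, an activator of the GTPase Rac, read 100.4, 107, 97.7, 108 and 123 CPM in FXS and 123, 148 and 140.0 CPM in DKO, with FXS replicate 5 level with DKO replicate 1. Its log2 fold change was 0.41 ± 0.0825 (SE, edgeR adjusted p 0.574), and 0.38 (p 0.000578) in S6K1 against WT. The nucleolar RNA helicase Ddx21 had a log2 fold change of 0.39, with 34.2 to 41.9 CPM in FXS and 46.2 to 50.9 CPM in DKO. The splicing factor Hnrnph1 had 0.44, topoisomerase Top1 0.37, the splicing-associated Acin1 0.39 and the nuclear anchoring protein Akap8l 0.50. The remaining higher genes were the polarity protein Prickle1 at 0.32, the diacylglycerol kinase Dgki at 0.27, the annexin Anxa5 at 0.52, the myosin Myo16 at 0.43 and the matrix peroxidase Pxdn at 0.77. FXS replicate 3 stood apart from the other FXS libraries for Anxa5 and Top1. Without the batch term Acin1 was at 0.14 and Pxdn at 0.33.

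Among the lower genes, the clustered protocadherin Pcdhga9 read 15.5, 19.3, 14.4, 13.3 and 14.6 CPM in FXS and 8.73, 9.38 and 6.504 CPM in DKO. Every DKO library was below every FXS library, while S6K1 libraries (12.5 to 20.2 CPM) spanned the range of FXS. Its log2 fold change was -0.90 ± 0.177 (SE, edgeR adjusted p 0.574), and the difference from the S6K1 contrast was -0.97 (unadjusted p 0.000944). Pcdhga9 and Pcdhgb5 (-0.56) share their constant exons with the rest of their cluster, so their counts are uncertain. Adi1, an enzyme of methionine salvage, read 65.1, 64.2, 94.3, 76.4 and 72.7 CPM in FXS and 63.6, 57.6 and 48.7 CPM in DKO, with all DKO libraries lower, and had a log2 fold change of -0.70 ± 0.158 (SE, edgeR adjusted p 0.733). Further genes below 0 were Lyrm7 (-0.75), which assists assembly of respiratory complex III, the chemokine Cxcl12 (-0.57), the carbonic anhydrase Car4 (-0.50), Ovca2 (-0.73), Nipal3 (-0.42), the mitochondrial NOD-like protein Nlrx1 (-0.64), the exosome subunit Exosc9 (-0.33) and the Cajal-body protein Coil (-0.30). Exosc9 read 90.6, 91.4, 96.98, 92.4 and 89.4 CPM in FXS and 127, 71.5 and 76.5 CPM in DKO, with DKO replicate 1 above and the other DKO libraries below every FXS library. Its fitted value rests on the batch term, without which it was -0.0074, and Adi1 and Lyrm7 were at -0.40 and -0.21 without that term.

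**Figure D3:**
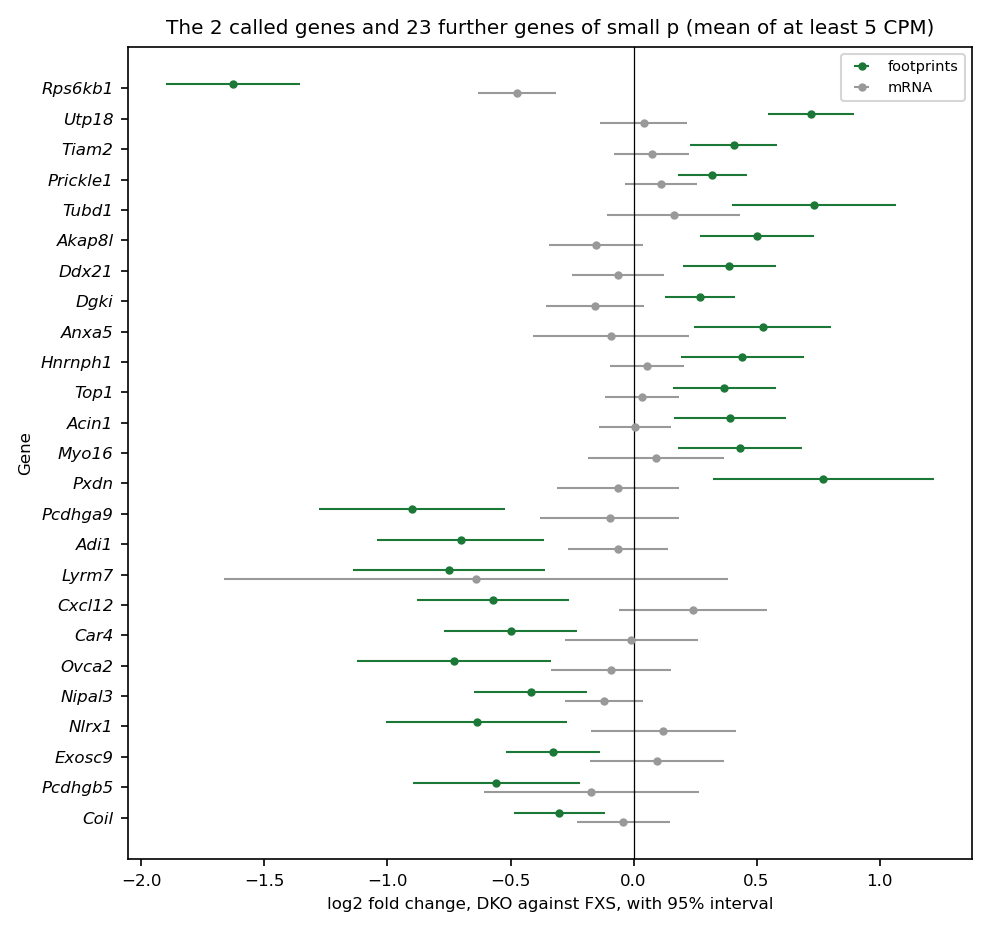
Log2 fold change of DKO against FXS with its 95% interval for Rps6kb1, Utp18 and 23 of the 24 genes of smallest p (12 per direction, mean of at least 5 CPM), in footprints (green) and mRNA (grey). The mRNA intervals of the 23 genes and of Utp18 cover 0, and that of Rps6kb1 does not.

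The genes that Fmr1 loss had changed were followed next. FXS against WT called 23 of 13953 genes, 0.165%, Fmr1 included, and DKO against WT called 51, 0.366%. Without FXS replicate 5, 4 or 3 the count of FXS against WT was 1, 4 or 7, and that of DKO against WT was 2 without DKO replicate 3 and 3 without DKO replicate 2. Of the 23, 21 were lower in FXS and 2 were higher. In DKO against FXS 0 of the 23 were called by edgeR, 5 had an unadjusted p under 0.05 (21.7%, against 6.19% of all genes), and the smallest adjusted p was 0.574. DESeq2 called Prickle1. The median log2 fold change of the 23 was -0.08, over a range from -0.46 to 0.50, against -0.01 over all genes tested. The DKO and FXS libraries overlapped for 21 of the 23 (91.3%, against 96.3% of all genes). The median 95% half-width was 0.241 on the log2 scale, or 1.18-fold, so smaller differences could not be resolved for a gene of that width. This width is for 1 gene without adjustment. After adjustment over all genes tested larger differences were not called either, as the range from -0.46 to 0.50 shows. The FXS libraries enter both contrasts, so a deviation of these libraries alone moves FXS against WT and DKO against FXS in opposite directions, and no agreement between the contrasts is counted here. The WT libraries enter FXS, S6K1 and DKO against WT, so a deviation of WT alone moves these contrasts the same way. For genes picked by FXS against WT, the values of S6K1 and DKO against WT are therefore not independent of the choice.

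Genes of myelin and oligodendrocytes made up 8 of the 22 genes other than Fmr1, by a list of 32 such genes. All 32 were among the 13953 genes tested, of which 23 (0.165%) were called in FXS against WT. The list was chosen with earlier results of these data known. Cnp, an enzyme of myelin, read 849 to 999.9 CPM in WT, 698, 758, 598, 599.9 and 575 CPM in FXS and 603, 555 and 575 CPM in DKO. S6K1 libraries read 669 to 717 CPM. All 3 mutant genotypes lay below WT, whose libraries also entered the choice of this gene, and FXS and DKO overlapped. On the log2 scale FXS against WT gave -0.52, DKO against WT gave -0.64 and DKO against FXS gave -0.12 (95% interval -0.29 to 0.06). Myrf, the transcription factor that drives myelin genes, had -0.69 and -0.14 in FXS against WT and DKO against FXS, Fa2h, which makes hydroxylated myelin lipids, -0.76 and -0.08, Ugt8a, which makes galactocerebroside, -0.59 and -0.02, the connexin Gjc3 -0.65 and -0.27, and the septin Sept4 -0.47 and -0.02. The integrin Itgb4 read 9.102, 8.56, 6.300, 7.07 and 8.74 CPM in FXS and 5.24, 4.62 and 6.25 CPM in DKO against 11.5 to 13.5 CPM in WT. Every DKO library was below every FXS library, and the log2 fold change of DKO against FXS was -0.46 (95% interval -0.79 to -0.13, p 0.0102), further from WT. In S6K1 against WT the log2 fold change was -0.47 for Cnp (unadjusted p 5.49e-05, edgeR adjusted p 0.151), -0.47 for Myrf, -0.54 for Fa2h, -0.39 for Ugt8a, -0.74 for Gjc3, -0.30 for Sept4 and -0.42 for Itgb4. Sept4 lies 1.07 Mb from Rps6kb1 on chromosome 11, among the neighbours read below. For Cnp the difference between DKO against FXS and S6K1 against WT was 0.35 (unadjusted p 0.00577, edgeR adjusted p 1.00). In mRNA, Cnp read 347 ± 29.3 CPM in WT and 326 ± 19.6 CPM in FXS (mean ± SD, n = 4 each). Myrf read 28.3 ± 2.37 and 28.1 ± 3.37 CPM, Fa2h 34.9 ± 7.32 and 33.2 ± 2.44 CPM, Ugt8a 56.2 ± 5.95 and 56.2 ± 8.08 CPM, and Itgb4 12.1 ± 3.67 and 11.2 ± 2.82 CPM. The FXS mean lay within 1 SD of the WT mean for these 5 genes. It lay more than 1 SD below for Gjc3, at 21.4 ± 2.16 and 18.6 ± 2.57 CPM, and Sept4, at 251 ± 24.1 and 211 ± 14.4 CPM. These SDs include the spread between mRNA batches, each of which held every genotype. The comparison with the SD is therefore not a test of FXS against WT in mRNA, and does not show these mRNAs unchanged. In bulk tissue, fewer cells of a type and less RNA per cell cannot be told apart, and how much either bears on footprints was not tested. In the authors' deposited table Cnp had log2 fold changes of -0.53 in FXS and -0.64 in DKO, both against WT.

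Prickle1, Serpinb8 and Tnnc1 had unadjusted p under 0.05 in DKO against FXS with DKO above FXS. Prickle1, a component of planar cell polarity signalling (chromosome 15, 93499111 to 93596266), read 165, 175, 155 and 160.4 CPM in WT, 136, 131, 148, 126 and 126 CPM in FXS and 150.2, 179.9 and 164 CPM in DKO. FXS was lower than WT in every library, DKO was above FXS in every library, and DKO overlapped WT. FXS against WT gave a log2 fold change of -0.30 ± 0.0551 (SE, edgeR adjusted p 0.0478), and DKO against FXS gave 0.32 ± 0.0658 (adjusted p 0.574). DKO against WT was 0.02 (95% interval -0.12 to 0.17), and the authors' deposited table gave -0.30 in FXS and 0.02 in DKO, both against WT. The protease inhibitor Serpinb8 read 15.5, 19.3, 20.1 and 15.7 CPM in WT, 9.102, 7.298, 15.2, 13.3 and 10.6 CPM in FXS and 21.3, 18.8 and 15.2 CPM in DKO, with FXS replicate 3 level with DKO replicate 3. Its log2 fold change was 0.45 (95% interval 0.15 to 0.75, edgeR adjusted p 0.762) in DKO against FXS and -0.18 (-0.48 to 0.13) in DKO against WT. Tnnc1, a troponin, read 14.7, 14.4, 10.6, 17.4 and 13.2 CPM in FXS and 22.9, 16.3 and 22.1 CPM in DKO, which overlapped both FXS and WT (22.3 to 35.5 CPM), with 0.50 (0.09 to 0.92) and -0.50 (-0.92 to -0.09) in the same contrasts. Prickle1 and Serpinb8 were among the 3 of 22 genes whose 95% interval of DKO against WT held 0.

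For the remaining genes named here the interval of DKO against FXS held 0. Igsf9b, an adhesion protein of inhibitory synapses, read 19.9, 16.03, 14.3 and 14.9 CPM in WT, 12.4, 10.9, 6.93, 8.47 and 7.56 CPM in FXS and 8.05, 9.59 and 9.18 CPM in DKO, so that both mutants overlapped below WT. It had 0.23 (95% interval -0.09 to 0.55), and without the batch term -0.042. Values were 0.04 for the transcription factor Atmin, 0.11 for the semaphorin receptor Plxnb3, -0.10 for Heg1, -0.10 for Tprn, -0.13 for Ndrg1, -0.17 for Tnrc6c of the miRNA silencing complex and -0.26 for the transcriptional cofactor Zfpm1. Of the pair that was higher in FXS, the activin receptor Acvr2a read 35.9, 33.1, 26.3 and 25.8 CPM in WT, 46.3, 44.5, 51.95, 35.6 and 37.8 CPM in FXS and 62.2, 43.4 and 32.6 CPM in DKO. DKO spanned the range of FXS, and the log2 fold change was -0.19 (p 0.0508). Cd99l2 had -0.19 (p 0.0544). Without the batch term both were above 0, at 0.093 and 0.089.

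**Figure D4:**
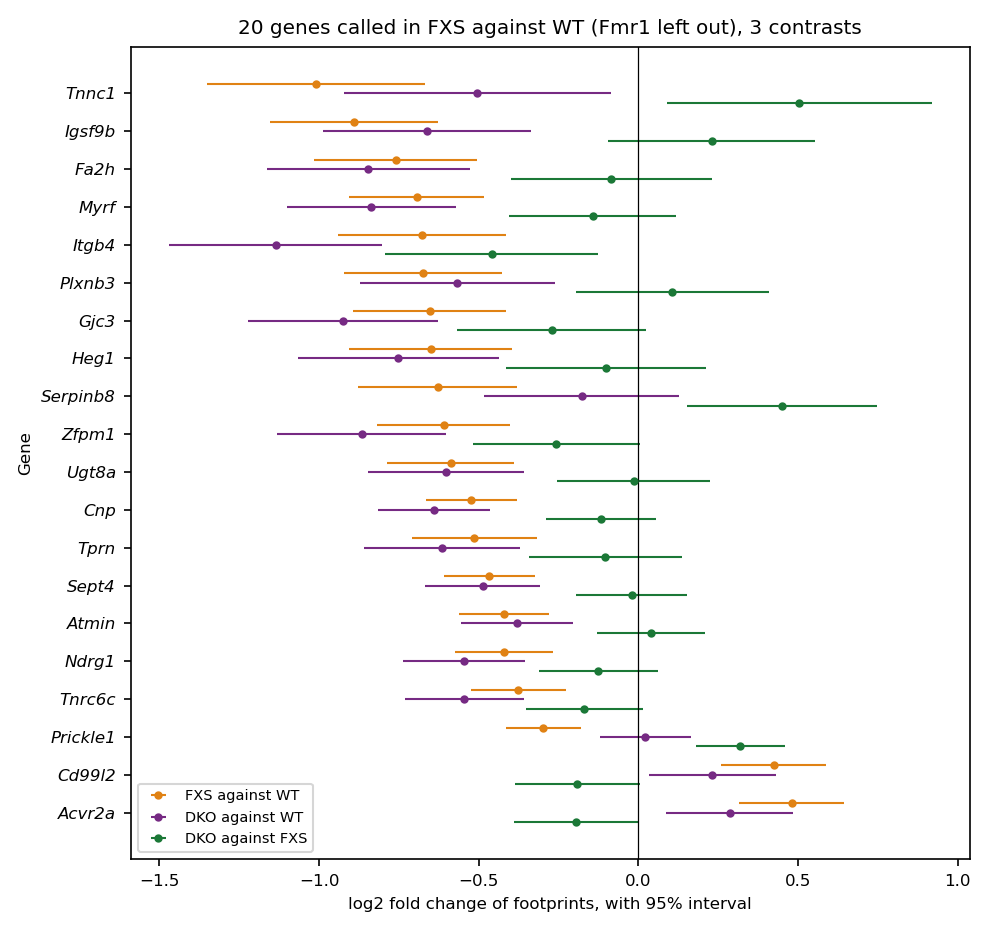
Log2 fold change of footprints with its 95% interval for 20 genes other than Fmr1 that were called in FXS against WT, in FXS against WT, DKO against WT and DKO against FXS. The DKO against FXS interval covers 0 for 16 of the 20, and Prickle1 and Serpinb8 are among the 4 where it does not.

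Whether S6K1 loss acted differently with and without Fmr1 was tested as DKO against FXS minus S6K1 against WT. By edgeR 0 of 13953 genes were called and 428, 3.07%, had an unadjusted p under 0.05. DESeq2 called 5, which were Hist1h4i, Gabra2, H2-L, S100a10 and Anxa5. The DESeq2 value of H2-L, 34.8 on the log2 scale, is too large to be read as a fold change. The 3 genes of smallest p by edgeR were named after their values were seen. S100a10, a calcium-binding partner of annexin, read 24.4, 26.3, 35.7 and 31.03 CPM in WT, 39.7, 36.5 and 48.7 CPM in S6K1, 32.1, 37.1, 35.1, 42.2 and 39.96 CPM in FXS and 31.8, 26.4 and 34.7 CPM in DKO. S6K1 libraries lay above WT libraries, DKO and FXS overlapped, and the difference between the contrasts was -0.95 ± 0.152 (SE, edgeR adjusted p 0.224). Anxa5 and S100a11 had 1.00 (0.503) and -1.11 (0.562).

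In the pathway of the deleted kinase Rps6kb1 was the 1 gene called. All 42 listed genes of the S6K1 and mTORC1 pathway were tested, with a median log2 fold change of 0.06. In addition to Rps6kb1, 1 had an unadjusted p under 0.05, which was Cad, an S6K1 substrate that starts pyrimidine synthesis, at 0.29 with overlapping groups (31.7 to 50.7 CPM in FXS and 37.6 to 53.5 CPM in DKO). Of 45 translation factors, 1 was higher at that threshold and 0 lower, with a median of 0.07 and 43 of the 45 above 0. The higher gene was the poly(A)-binding protein Pabpc1 at 0.35. Over all genes tested, 6731 of 13953 were above 0. Of 76 cytosolic ribosomal protein genes, Rpl5 at 0.21 was the 1 higher gene and 0 were lower, with a median of 0.05. In the complex that holds Utp18, the small-subunit processome, 4 of 48 genes were higher and 0 lower, and the median was 0.06. Besides Utp18 these were Heatr1 (0.24), Bms1 (0.20) and Utp6 (0.17). Of these 3, Bms1 read 39.002, 41.2, 42.5, 38.5 and 36.3 CPM in FXS and 46.7, 48.2 and 43.3 CPM in DKO, without overlap. Utp18 and Utp6 lie among the chromosome 11 neighbours of Rps6kb1 read below, at 7.36 and -6.56 Mb from it. Utp18 was the 1 gene of the list that was called. These counts stand against 2.76% higher and 3.43% lower of all genes at the same unadjusted threshold. They move with the libraries and the batch term: without FXS replicate 3, 7 genes of the S6K1 pathway were higher and 2 lower, 13 translation factors, 7 ribosomal protein genes and 7 processome genes were higher, while 848 of all genes were higher. Without the batch term 9 pathway genes, 12 translation factors and 10 processome genes were higher, among 807 of all genes. The processome count was 1 without FXS replicate 5, without DKO replicate 2 and with batches 3 and 4 alone.

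Among the 21 genes of the FMRP family and its partners, 4 were higher and 0 lower at an unadjusted p under 0.05, 0 were called, and the median was 0.14. Over all genes 2.76% were higher and 3.43% lower, for comparison with this list and the FMRP targets below. The scaffold Ranbp9 read 79.9, 71.9, 103, 71.6 and 68.7 CPM in FXS and 132, 122 and 90.04 CPM in DKO, at 0.36. FXS replicate 3 lay among the DKO libraries. The FMRP paralogue Fxr1 had 0.20, the m6A reader Ythdf2 0.20 and Cyfip1, the FMRP partner in the WAVE complex, 0.21. With batches 3 and 4 alone the count was 1. Of 74 mRNAs known as FMRP targets, 1 was higher (1.35%) and 4 lower (5.41%), with a median of 0.01. The 4 lower were the synaptic adhesion protein Nlgn1 (-0.25), the metabotropic glutamate receptor Grm5 (-0.22), the adenylyl cyclase Adcy1 (-0.27) and the NMDA receptor subunit Grin2a (-0.21). Without FXS replicate 3 the count was 0 higher and 13 lower, and without DKO replicate 3 it was 3 higher and 0 lower. Nlgn1 was above 0, at 0.064, without the batch term.

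Glutamate receptors and their Homer scaffolds, 25 genes tested of 26, had 0 higher and 5 lower genes (against 2.76% and 3.43% of all genes) and a median of -0.12, and 23 of the 25 were below 0. Over all genes tested, 7222 of 13953 were below 0. The AMPA receptor subunit Gria1 read 228, 261, 239, 183 and 189 CPM in FXS and 220.1, 187 and 150.1 CPM in DKO, with overlap, at a log2 fold change of -0.28 (p 0.00870, edgeR adjusted p 0.762). The kainate subunit Grik1 had -0.39 and the NMDA subunit Grin3a -0.25. The median in mRNA lay at -0.00039. The count of lower genes was 1 without FXS replicate 4 and 1 without the batch term. Of 25 genes of cholesterol synthesis and uptake, 0 were higher and 5 lower, 24 were below 0 and the median was -0.15, against 0.04 in mRNA. These included Insig1 (-0.41), which holds back the sterol sensor, and the enzymes Acat2 (-0.26) and Cyp51 (-0.24). Acat2 read 14.8, 18.4, 16.9, 17.5 and 21.1 CPM in FXS and 15.2, 14.4 and 14.9 CPM in DKO, and Insig1 18.5 to 26.4 and 15.1 to 17.1 CPM. Insig1 did not overlap between the groups. Cyp51 was above 0, at 0.13, without the batch term, and the count of lower genes was 2 with batches 3 and 4 alone.

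Cell-type markers were read in the same way, against the same 2.76% higher and 3.43% lower of all genes. Of 32 oligodendrocyte and myelin genes 0 were higher and 4 lower, namely Itgb4, the connexin Gjb1 (-0.42), Pllp (-0.41) and Opalin (-0.33), and the median was -0.14, against 0.13 in mRNA. Their summed level ran from 3052 to 4468 CPM in FXS and from 3139 to 4319 CPM in DKO. The count was 0 without DKO replicate 2. Of 16 endothelial markers 0 were higher and 3 lower, with a median of -0.30 in footprints and -0.36 in mRNA. Cldn5, a tight-junction protein of brain vessels, had -1.32 (p 0.00109) from 37 footprints in DKO and 132 in FXS, Ly6a had -1.19 and Pltp -0.58. Over the alternatives Ly6a ran from -1.52 to -0.30, and the count of lower endothelial markers was 1 without DKO replicate 2, without FXS replicate 3 and without the batch term. Their summed level overlapped, at 69.4 to 123 CPM in FXS and 68.7 to 118 CPM in DKO. Of 19 interneuron genes 4 were higher, among them the GABA-synthesising enzyme Gad1 (0.33) and the transcription factors Dlx5 (0.57) and Dlx1 (0.49), and 1 was lower, the serotonin receptor Htr3a (-0.42). Of the 19, 11 were above 0 and 8 below, with a median of 0.11 in footprints and 0.12 in mRNA. Gad1 read 918, 959, 921, 821 and 1039 CPM in FXS and 946, 1259 and 1032 CPM in DKO, with overlap, and without the batch term the list had 0 higher. Of 16 astrocyte genes Gfap at -0.44 was the 1 lower gene, and of 10 oligodendrocyte precursor genes Vcan at 0.46 was the 1 higher. In the microglial (16), cortical excitatory (17), striatal (15), choroid plexus (6), blood (4) and immediate early (24) lists 0 tested genes passed an unadjusted p of 0.05. The part of cell content in the differences above was not tested.

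Rps6kb1 and Utp18 lie 7.36 Mb apart, with Utp18 the 44th tested gene from Rps6kb1, so the 100 tested genes on each side of Rps6kb1 were read as a group. They reach 8.98 Mb to the left and 10.9 Mb to the right. Of these 200 genes 7 were higher and 16 lower at an unadjusted p under 0.05, or 11.5%, against 7.37% of the 1126 tested genes of chromosome 11 and 6.19% of all genes. Utp18 was the 1 called. Linked DNA around the targeted allele and the loss of S6K1 itself cannot be told apart here, because every library without Rps6kb1 would carry both. Values in the absence and presence of Fmr1 are given side by side for these neighbours.

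Wfdc18 read 1.91, 1.38, 1.19, 2.16 and 1.29 CPM in FXS and 0.440, 0.351 and 0.723 CPM in DKO, a log2 fold change of -1.62 (p 0.000523), with -2.002 in S6K1 against WT. All DKO libraries were below all FXS libraries, from 40 and 182 counts. Car4 read 12.9, 11.1, 12.6, 9.59 and 8.82 CPM in FXS and 8.81, 7.63 and 7.91 CPM in DKO, nearly touching, and had -0.50 against -0.60 in S6K1 against WT. Coil had -0.30 against -0.25, and Slfn8 -1.96 against -2.45. The phosphatase gene Mtmr4 had 0.23 against 0.31. The clathrin heavy chain Cltc, also near Rps6kb1, had 0.27 against 0.02, and the adaptor Skap1 0.93 against -0.77, with an edgeR test of that difference at an unadjusted p of 0.000202. Skap1 had a low level, a mean of 1.19 CPM over the 8 libraries, and was not called in that test. Mtmr4, Cltc and Skap1 were chosen after their values were seen.

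**Figure D5:**
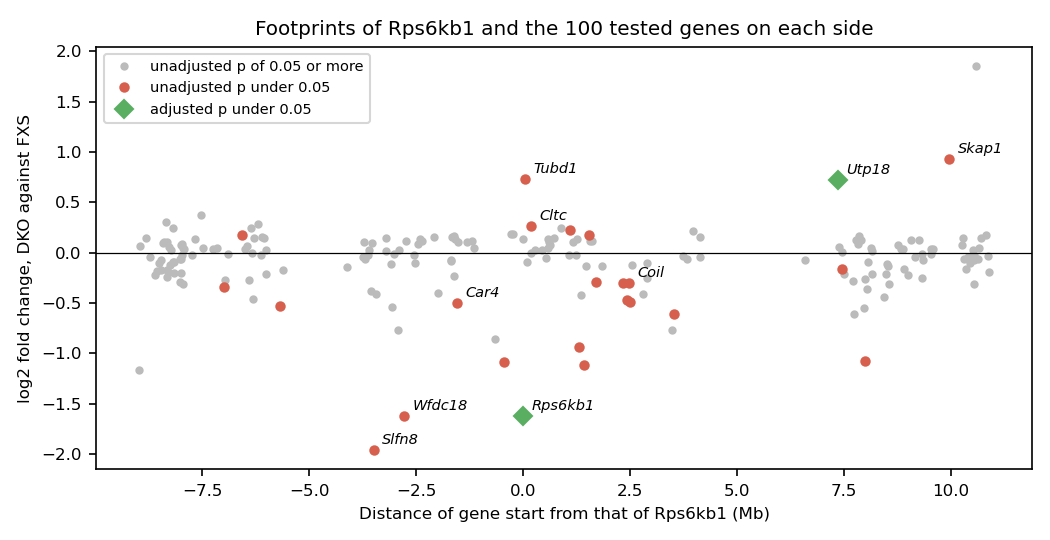
Log2 fold change of footprints in DKO against FXS for Rps6kb1 and the 100 tested genes on each side of it on chromosome 11, against distance of the gene start in Mb. Rps6kb1 lies at -1.63 and Utp18 at 0.72, and Tubd1 at 0.73 lies beside Rps6kb1.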

How the data were processed

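Footprint and polyadenylated mRNA libraries of cortex were counted by the authors. The deposited tables hold raw whole-number counts per gene symbol (20436 genes), over coding sequence per the file names. Per the submitters' processing notes, cutadapt 2.0, Bowtie2, TopHat2, RSEM and the mm10 build were used, with no role or order given, so whole counts may be rounded RSEM estimates. The authors' deposited comparison tables hold, per the file headers, a mean normalised signal, a log2 fold change, a test statistic (a score) and p-values. They cover FXS and DKO against WT.

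Here all 15 footprint libraries were fitted with batch and genotype in edgeR 4.0.16 (R 4.3.3): filterByExpr on genotype (13953 genes kept), TMM factors (0.957 to 1.04), robust quasi-likelihood F-test and Benjamini-Hochberg adjustment over all genes tested. A gene was called at an adjusted p under 0.05. The SE is the size of the log2 fold change divided by the root of F. The 16 mRNA libraries were fitted alike, and translational efficiency in 1 model with batch nested in assay. The test was checked on simulated counts. No footprint library repeated another, since the lowest chi-square per degree of freedom over 105 pairs was 7.79. Libraries of 1 batch deviated together (median r across genes 0.248 over 20 pairs, against -0.0978 over 63 others). DESeq2 1.42.0, limma 3.58.1 (voom), other scaling, filters and sample sets were alternatives.

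Named genes were Rps6kb1, Utp18 and Fmr1, called genes, the 12 of smallest p in each direction (mean of at least 5 CPM), the genes called in FXS against WT, and up to 4 members per gene list with an unadjusted p under 0.05. A few genes that meet these rules are not reported here, but stay in every fit and count. The members and lists were chosen with earlier results of these data known. Gene positions and promoter windows are from RefSeq (GRCm38.p6), matched by symbol for 13917 of 13953 genes.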

Additional observations from a re-analysis of the deposited data

Results flagged for a closer look

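In 4 of 96 groups of 4 or 5 libraries (4.17%; 48 genes, WT and FXS), 1 library lay far from the rest by Dixon's test at the 95% level, which chance alone does in about 1 in 20 groups. Anxa5 read 124.52 CPM in FXS replicate 3 and 64.1 to 69.0 CPM in the other FXS libraries. Top1 read 228.72 CPM in FXS replicate 3 and 152.1 to 173 CPM in the others. Zfpm1 read 8.48 CPM in FXS replicate 3, against 11.6 to 12.9, and 15.3 CPM in WT replicate 2, against 17.7 to 18.1. All 4 values belong to libraries of batch 3. What sets them apart was not tested.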

How the results depend on the processing

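In DKO against FXS footprints, 2 genes were called with other scaling factors, without a filter on low counts, with limma voom and without the batch term. DESeq2 called 6 (Rps6kb1, Utp18, Tiam2, Prickle1, Pcdhga9 and Adi1), batches 3 and 4 alone gave 1, the DKO and FXS libraries alone gave 3 (adding Adi1), and leaving out 1 library gave 1 to 4. The lowest was without DKO replicate 3 and the highest without FXS replicate 2, which added Banp and Hist4h4. Rps6kb1 was called in every alternative run. At an unadjusted p under 0.05, without FXS replicate 3 there were 848 genes higher and 904 lower, and without DKO replicate 2 there were 222 and 329. For the difference between the contrasts DESeq2 called 5. FXS against WT called 114 with DESeq2, 13 with voom, 1 without the batch term, 11 in batches 3 and 4 and 1 to 18 with 1 library left out. It was 1 without FXS replicate 5, 4 without FXS replicate 4, 7 without FXS replicate 3, 10 without FXS replicate 1 and 15 without DKO replicate 3. DKO against WT called 290 with DESeq2, 6 without the batch term, 31 in batches 3 and 4 and 2 to 177 with 1 library left out. It was 2 without DKO replicate 3, 3 without DKO replicate 2, 8 without DKO replicate 1, 177 without FXS replicate 3, and 24 and 22 without FXS replicates 4 and 5. In mRNA DESeq2 called 28, the model without batch 0 (505 at an unadjusted p under 0.05) and leaving out 1 library gave 0 to 5. Translational efficiency had 0 without the batch term (1315 at an unadjusted p under 0.05).

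Of 91 genes tried, 12 changed sign in some alternative, none of them called in this contrast. Without the batch term the log2 fold change of DKO against FXS was -0.042 for Igsf9b, -0.066 for Atmin, 0.37 for Ugt8a, 0.093 for Acvr2a, 0.089 for Cd99l2, 0.064 for Nlgn1, 0.13 for Cyp51 and -0.036 for Smox. With 1 library left out it ran from -0.051 to 0.058 for Sept4, -0.197 to 0.0979 for Fa2h, -0.0379 to 0.00965 for Ugt8a, -0.00323 to 0.214 for Cuedc1 and -0.153 to 0.189 for Smg1. Smg1 was -0.00828 with DKO and FXS alone. The causes were not tested. No paired analysis was possible because the labels give no replicate numbers, and the batch, their one block, is a term in the model. With 3 DKO libraries, the median 95% half-width over all genes was 1.21-fold, so smaller differences were not resolved for a gene of that width. Genes measured more closely, such as Dgki at 0.27 (95% interval 0.13 to 0.41), had narrower intervals. The median width is for 1 gene without adjustment, and larger differences were also left uncalled. Pcdhga9, at a log2 fold change of -0.90, had an edgeR adjusted p of 0.574.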

Other observations

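Several gene groups outside the comparisons above were also read in DKO against FXS footprints. Of 76 mitochondrial ribosomal protein genes 2 were higher and 3 lower at an unadjusted p under 0.05, with a median log2 fold change of -0.0046. These shares, 2.63% and 3.95%, stood close to those of all genes, 2.76% higher and 3.43% lower. The lower ones were Mrpl55 (-0.52), Mrpl9 (-0.35) and Mrps23 (-0.29), and the higher ones included Mrps6 (0.25). Mrps23 lies 1.70 Mb from Rps6kb1 on chromosome 11, among the neighbours read above. Mrpl55 read 26.6, 27.1, 26.2, 34.5 and 31.5 CPM in FXS and 16.9, 17.6 and 23.4 CPM in DKO, without overlap. Of 81 respiratory chain genes Cox4i2 at -0.85 was the 1 that passed, from 59 and 131 counts, and 0 of 37 proteasome genes and 0 of 23 genes of the integrated stress response passed. Without FXS replicate 3, 11 respiratory chain and 6 proteasome genes were higher, and without DKO replicate 2, 8 and 0. In the polyamine and iron list, the spermine oxidase Smox had 0.26 and the iron exporter Slc40a1 -0.74. The Y-linked helicase gene Ddx3y was read at 66.9 to 105 CPM in FXS and 91.3 to 121 CPM in DKO, and was present in all 15 footprint libraries.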
